A study of Mus musculus with 10 samples.

Results

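COX-deficient melanomas were compared between mice that were depleted of natural killer (NK) cells and mice that were left untreated, to ask which transcripts of an early tumor depend on the presence of NK cells. The comparison uses 6 of the 10 bulk tumor libraries of the series, chosen by the submitters' labels and by no measured value. All 6 came from tumors of Ptgs1/Ptgs2-deficient (Ptgs-/-) melanoma cells, collected 4 days after implantation under the skin of C57BL/6 hosts that were 8 weeks old. In 3 of them the host was untreated, and in 3 the host had received antibodies against NK1.1 (200 µg) and asialo-GM1 (30 µg) on day 0 and again on day 2. The other 4 libraries came from COX-competent (Ptgs+/+) tumors of untreated hosts. They served in the estimate of the spread between replicates, and a few of their levels are given for reference.

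The deficient cells were made by CRISPR/Cas9 from a Braf-driven mouse melanoma line, so that both groups lack the cyclooxygenases COX-1 and COX-2 in the tumor cells while host cells keep both genes. The number of clones in this line is not given in the sources used here. The labels describe the control hosts as untreated and name no control antibody, whereas the study's general methods list control antibodies and another schedule, of which the labels of these libraries say nothing. On the labels' account an effect of the antibodies themselves and the loss of NK cells cannot be told apart. NK1.1 is the product of Klrb1c, whereas asialo-GM1 is a glycolipid that NK cells share with other leukocytes, and which cells besides NK cells were lost was not tested here. By flow cytometry at the same time point, the paper reports no gross change in other innate cell subsets after depletion. Its single-cell data gave mostly unchanged proportions of the other immune populations. Untreated replicate 3 carries another code in its title than the remaining 5 libraries. The labels name tumors and do not say which animals shared a cage or day, so p-values measure the spread between these libraries.

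NK cells are innate lymphocytes that kill stressed or transformed cells by releasing granules of perforin and granzymes. A balance of activating and inhibitory receptors governs them, many of them lectin-like receptors encoded in 1 cluster, the NK gene complex on mouse chromosome 6. They also secrete interferon-γ (IFN-γ) and chemokines, and IFN-γ drives the transcription of antigen presentation genes, guanylate-binding proteins and the T cell-attracting chemokines of the CXCL9 family in the cells around them.

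The 6 libraries held between 8150556 and 10966726 counts. Levels are given as CPM, a gene's count scaled by the total of its library, and 3 counts, taken as the floor of a library, correspond to 0.274 to 0.368 CPM. Of the 45706 genes in the table, 14550 had enough counts to be tested. The first principal component of the 6 libraries held 44.0% of the variance and separated the hosts, and the second held 26.4% and set untreated replicate 1 apart from the rest. The share of counts in mitochondrial genes was 3.49% to 4.38% in untreated and 3.27% to 4.23% in NK cell-depleted hosts. The targeted genes were looked at first. Ptgs1, which encodes COX-1, stood at 105, 77.0 and 99.6 CPM in untreated hosts and at 95.3, 97.8 and 96.2 CPM in depleted hosts. Ptgs2, which encodes COX-2, stood at 74.8, 27.2 and 27.0 CPM against 49.3, 40.2 and 45.0 CPM. Neither gene passed the test between the hosts (adjusted p = 0.89 for Ptgs1 and 0.957 for Ptgs2, edgeR's quasi-likelihood test), and in Ptgs+/+ tumors they reached 128 to 170 CPM and 94.4 to 347 CPM. The counts come from the 3′ end of transcripts and host cells contribute to them, so that these values do not check the edit itself.

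Depletion of NK cells went with lower levels of NK cell genes and with higher levels of skeletal muscle genes, and interferon-stimulated genes lay lower by a smaller margin. A gene was called changed when its false discovery rate (FDR) was at or under 0.05 and its log2 fold change at least 1.5 in either direction. By this rule 167 of 14550 genes were called (1.15%). Of these, 47 were lower in NK cell-depleted hosts (0.323%) and 120 were higher (0.825%). At an unadjusted p under 0.05, which the counts for single lists also use, 1003 genes were lower (6.89%) and 627 higher (4.31%), and DESeq2 passed 209 lower and 174 higher genes at its FDR. With the FDR of edgeR alone, 209 genes passed (1.44%), of which 75 were lower (0.515%) and 134 were higher (0.921%). Among the 47 genes called lower, 28 belong to 4 lists of NK cell genes, 2 to a T cell list, 3 to lists of interferon-stimulated genes and 14 to none of the 35 lists examined. Among the 120 called higher, 47 belong to 3 lists of skeletal muscle genes, 73 to none of the lists, and 0 to any other list. The 73 were not assigned to a tissue and are not a count of genes foreign to muscle. They include Apobec2 and Mstn, muscle genes described below. The genes just outside the fold threshold included Ccl22, which fell by 1.36 on the log2 scale, and Pde4dip, which rose by 1.41, and those just inside were Phf11c, lower by a log2 fold change of -1.51, and Pfkm, higher by 1.51.

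**Figure D1:**
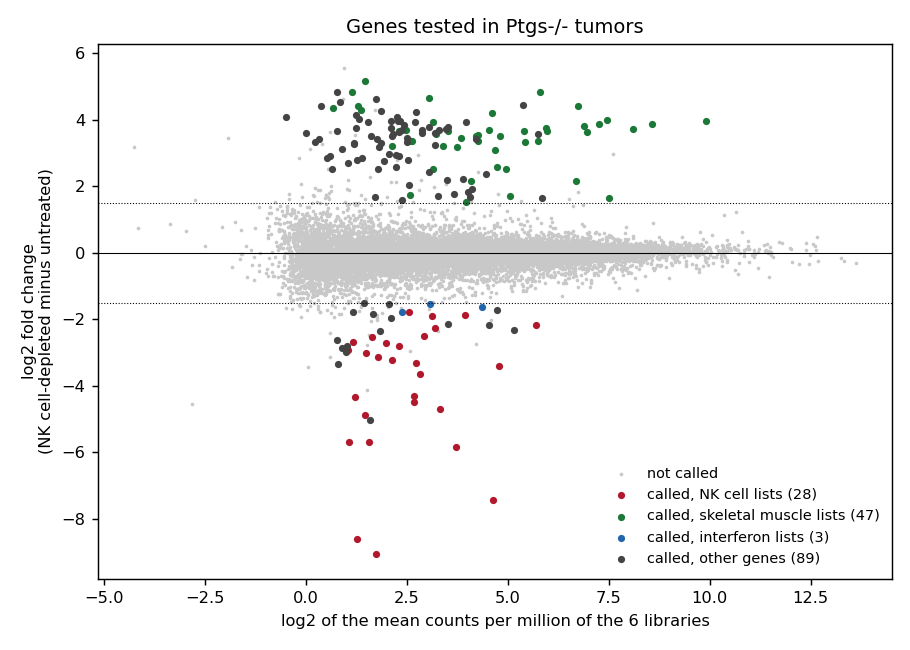
Each point is 1 of the 14550 genes tested, by the log2 of its mean CPM over the 6 libraries and its log2 fold change (NK cell-depleted minus untreated), with dotted lines at the fold threshold of 1.5 and colors for the called genes of each group of lists. The 28 called NK cell genes all lie below the lower line and the 47 called skeletal muscle genes all lie above the upper one, among them Acta1, the called gene of the highest level.

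Single libraries weighed on these counts. Without untreated replicate 1, the library set apart by the second component, 213 genes were called, 82 lower and 131 higher. Without untreated replicate 2 or 3 or depleted replicate 3, the total came to 100, 107 and 103. Untreated replicate 3, the library with the other title code, was the highest untreated library in 39 of the 47 genes called lower. It was the lowest untreated library in 92 of the 120 genes called higher. Depleted replicate 3 was the highest depleted library in 118 of those 120 genes.

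Genes of NK cells lay lower after depletion, some of them down to the floor and others well above it. Of 57 NK cell genes tested in the 4 lists, 56 lay lower and 1 higher in depleted hosts, and 28 were called lower where 0.323% of all genes were. Their median log2 fold change was -1.82, beside 0.01 over all genes tested. Between 23 and 31 of these genes were called lower with 1 library left out, and 21 with the libraries of the first title code alone. In bulk tumors, fewer cells of a type and less RNA per cell cannot be told apart.

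Receptors of the natural cytotoxicity and lectin-like families were among the genes called lower. Ncr1 (ENSMUSG00000062524, GRCm38 chromosome 7 from 4337724 to 4345164), which encodes the activating receptor NKp46, had 20, 48 and 77 counts in untreated hosts and 0, 0 and 0 in depleted hosts. The groups did not overlap, and with the floor of 3 counts in each depleted library Ncr1 was at least 16.1-fold lower (adjusted p = 0.00154, edgeR). Klrb1c (ENSMUSG00000030325, chromosome 6 from 128778485 to 128789215), the gene of the depleting antibody's target NK1.1, stood at 8.47, 12.9 and 15.1 CPM in untreated and at 0.428, 1.01 and 0.298 CPM in depleted hosts. Its log2 fold change was -4.31 (standard error 0.39, adjusted p = 0.000569). The transcript was near the floor of 3 counts in depleted replicates 1 and 3, at 4 and 3 counts, and above it in replicate 2, at 11. Klrc1 and Klrc2, which encode the inhibitory NKG2A and the activating NKG2C chain, are neighbors on chromosome 6. Klrc1 had 118, 227 and 433 counts against 5, 5 and 3, a fall of 5.84 on the log2 scale, and Klrc2 had 93, 182 and 303 counts against 2, 11 and 9, a fall of 4.69.

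The wider receptor list reached beyond surface lectins. All 26 members tested lay lower, with a median log2 fold change of -2.08, and 15 were called lower, where 0.323% of all genes were. Il2rb, the β chain of the receptors for IL-2 and IL-15, stood at 29.7, 42.8 and 77.1 CPM in untreated hosts and kept 4.60, 5.17 and 3.97 CPM in depleted hosts, a fall of 3.41 on the log2 scale (adjusted p = 0.00153). Eomes, a transcription factor of mature NK cells, went from 6.21 ± 1.56 CPM (SD, n = 3) to 0.687 ± 0.362 CPM (SD, n = 3), a fall of 3.12 (adjusted p = 0.002, edgeR). Klre1, a lectin-like receptor of the same cluster, had 32, 25 and 73 counts against 5, 0 and 1. By contrast Il18rap, a subunit of the IL-18 receptor picked here after its values were seen, stood at 31.7 to 48.1 CPM in untreated and 30.3 to 38.5 CPM in depleted hosts and was not called (log2 fold change -0.13, adjusted p = 0.813).

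Ly49 receptors, encoded by the Klra genes, recognize MHC class I molecules. Of 9 tested, 8 lay lower and the median log2 fold change was -2.54, and 5 were called lower, where 0.323% of all genes were. Klra9 had 41, 61 and 95 counts in untreated and 0, 0 and 0 in depleted hosts, at least 22.3-fold lower (adjusted p = 0.00163, edgeR). Klra7 had 29, 52 and 94 counts against 2, 1 and 0, and Klra8 had 19, 37 and 67 against 0, 2 and 0. Klra3 kept more of its signal, with 26, 49 and 85 counts against 7, 6 and 14, and fell by 2.54 on the log2 scale (adjusted p = 0.00801). Klra4, named after its values were seen, moved otherwise. It had 1176, 1083 and 1415 counts in untreated and 1334, 1763 and 1002 in depleted hosts, far above every other Ly49 gene, and did not pass the test (log2 fold change 0.10, adjusted p = 0.865). Ly49 genes are near-identical copies, and how the counting treated reads that match several of them is not stated, so their single values are uncertain. The summed level of the list, 169 to 200 CPM in untreated and 114 to 179 CPM in depleted hosts, overlaps because Klra4 makes up most of it.

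Effector genes lay lower as well. In the list of cytotoxic granules and death ligands, 13 of 21 genes were tested. All 13 lay lower, with a median log2 fold change of -1.31, and 6 were called lower, where 0.323% of all genes were. Gzma (ENSMUSG00000023132, chromosome 13 from 113093825 to 113100981), a granzyme stored in cytotoxic granules, fell by 7.44 on the log2 scale from 32.4, 35.0 and 80.0 CPM to 0.214, 0.554 and 0 CPM (adjusted p = 0.000971). Gzmb, the granzyme that cleaves caspases in target cells, had 46, 43 and 54 counts against 6, 7 and 5 (adjusted p = 0.012). That call was lost in 3 of the 10 fits that left out 1 library, with a highest adjusted p of 0.0797 without depleted replicate 3. Nkg7, a granule membrane protein, had 74, 128 and 191 counts against 10, 14 and 7, and Ctsw, a protease of cytotoxic lymphocytes, 30, 62 and 148 against 7, 7 and 11. Serpinb6b, a protease inhibitor, fell least among the called members, by 1.88 on the log2 scale from 24.1 ± 4.43 CPM to 6.40 ± 0.713 CPM (SD, n = 3 each). Prf1, which encodes perforin, was too low to be tested, at 12, 5 and 17 counts in untreated and 0, 0 and 0 in depleted hosts, at least 3.95-fold lower on the floor of 3 counts in each depleted library.

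**Figure D2:**
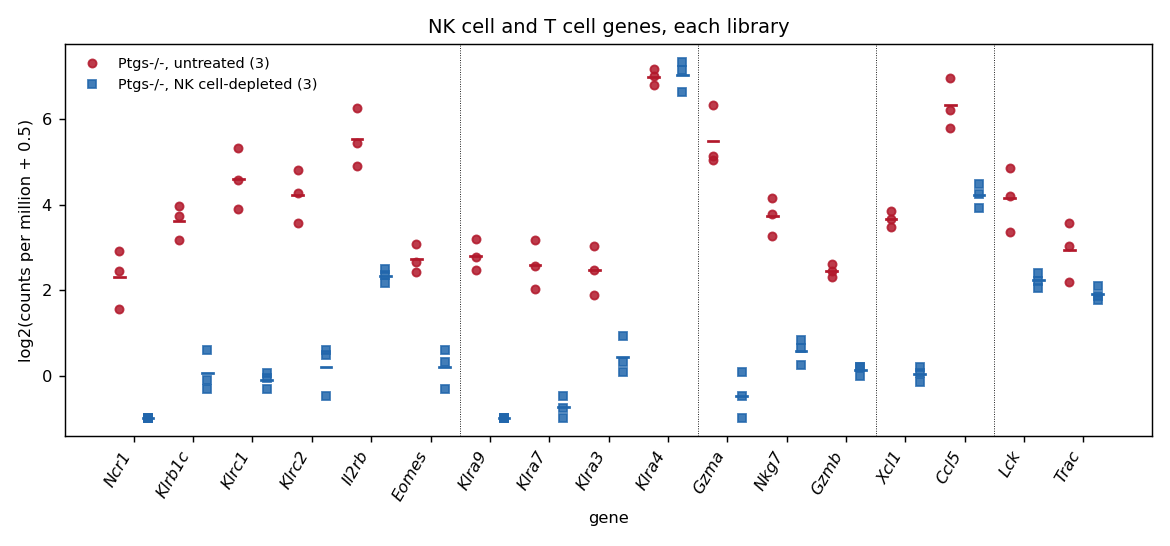
Level of 17 genes in each library, as log2(CPM + 0.5), with 1 point per tumor, a bar at the mean of each group of 3 libraries and dotted lines between receptors, Ly49 receptors, granule genes, chemokines and T cell genes. Points of the untreated and depleted hosts do not overlap for any gene but Klra4, and Trac comes closest to an overlap.

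Secreted factors of lymphocytes were lower too. Of 9 cytokine and chemokine genes tested, all 9 lay lower and 2 were called lower, where 0.323% of all genes were. Xcl1, a chemokine that attracts cross-presenting dendritic cells, fell by 4.47 on the log2 scale from 12.1, 10.7 and 13.9 CPM to 0.535, 0.646 and 0.397 CPM (adjusted p = 0.000174). Ccl5, a chemokine for T cells and monocytes, had the highest level of all genes called lower and kept part of it. It stood at 55.3, 74.4 and 125 CPM in untreated and at 18.7, 22 and 14.8 CPM in depleted hosts, a fall of 2.16 (adjusted p = 0.00221). Ccl4, a chemokine of the same family, went from 15.5 ± 3.82 CPM to 5.99 ± 1.71 CPM (SD, n = 3 each) and passed the FDR but not the fold threshold (fall of 1.35, adjusted p = 0.0205). Without untreated replicate 3 or depleted replicate 1 or 2 its adjusted p lay above the threshold, at up to 0.106. Ifng itself was too low to be tested, with 3, 4 and 7 counts in untreated and 1, 0 and 0 in depleted hosts. Corrected for depth its counts were 14.7-fold higher in untreated hosts, with a 95% counting interval from 2.24 to 622.

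Some NK cell genes lay below the level of COX-competent tumors after depletion. In all 3 depleted libraries Ncr1, Klra9 and Gzma lay under every Ptgs+/+ library, where Ncr1 stood at 0.722 to 1.15 CPM, Klra9 at 0.309 to 1.58 CPM and Gzma at 2.78 to 15.2 CPM. Of the 57 NK cell genes, 15 did so, against 12% of all genes tested, and 8 lay above every Ptgs+/+ library, against 15.1%. This ordering was not tested.

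Genes called lower outside the lists included further lymphocyte transcripts. Samd3 had 27, 64 and 84 counts against 3, 2 and 0. Ms4a4b, a membrane protein of T and NK cells, fell by 2.31 on the log2 scale from 42.1, 55.6 and 81.1 CPM to 12.8, 11 and 11.5 CPM (adjusted p = 0.00203). Slfn4, an interferon-induced gene of myeloid cells, stood at 29.8, 69.0 and 23.5 CPM against 10.5, 11.6 and 14.8 CPM (fall of 1.71, adjusted p = 0.0412). It was highest in untreated replicate 2, and its call was lost in 6 of the 10 fits that left out 1 library. The remaining 11, listed after their values were seen, were Crtam, Ptprcap, Gpr174, Stat4, Ptpn5, Gimap7, Phf11c, Tox and 3 genes named only by a clone or gene model.

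T cell genes lay lower together, and few passed the test. All 18 T cell genes tested were lower in depleted hosts, with a median log2 fold change of -1.19. Of these, 2 were called lower, where 0.323% of all genes were. At an unadjusted p under 0.05 there were 12, where 6.89% of all genes were lower. Lck, a kinase that NK cells use as well, fell by 2.13 on the log2 scale from 9.82, 18 and 28.7 CPM to 4.17, 4.80 and 3.68 CPM (adjusted p = 0.00599). Trbc1, a constant segment of the T cell receptor β chain, fell by 2.36 with an adjusted p of 0.0476, which 9 of the 10 fits without 1 library lost. Trac, the constant segment of the α chain and closer to a T cell-restricted gene, stood at 4.05, 7.66 and 11.5 CPM against 2.89, 3.14 and 3.77 CPM and was not called (adjusted p = 0.167). The summed level of the list was 119 CPM in untreated replicate 1 and 268 and 272 CPM in replicates 2 and 3, and it lay between 122 and 145 CPM in depleted hosts. The groups overlapped through untreated replicate 1.

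Interferon-stimulated genes lay lower as a group, mostly by less than the fold threshold. Of 97 genes tested in 6 lists, 93 lay lower and 4 higher in depleted hosts, and the median log2 fold change was -0.73. The 3 untreated libraries lay above all 3 depleted ones for 53 of the 97, while 10.4% of all genes separated in that direction. Of the 97, 7 passed the FDR, where 0.515% of all genes passed it as lower, and 3 were called, against 0.323%. An unadjusted p under 0.05 was reached by 67, where 6.89% of all genes were lower. Pan-leukocyte genes, picked after their values were seen, lay lower by similar amounts, Ptprc, which encodes CD45, with a log2 fold change of -0.82 (adjusted p = 0.038) and Ikzf1, a transcription factor of lymphoid and myeloid cells, with -0.75 (adjusted p = 0.0362). Their part in the levels of interferon-stimulated genes was not tested. The count past the FDR depended on single libraries and on the tool. It was 36 without untreated replicate 1, between 0 and 2 without untreated replicate 2 or 3 or any 1 depleted library, 1 without Ptgs+/+ replicate 4, and 33 by DESeq2.

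**Figure D3:**
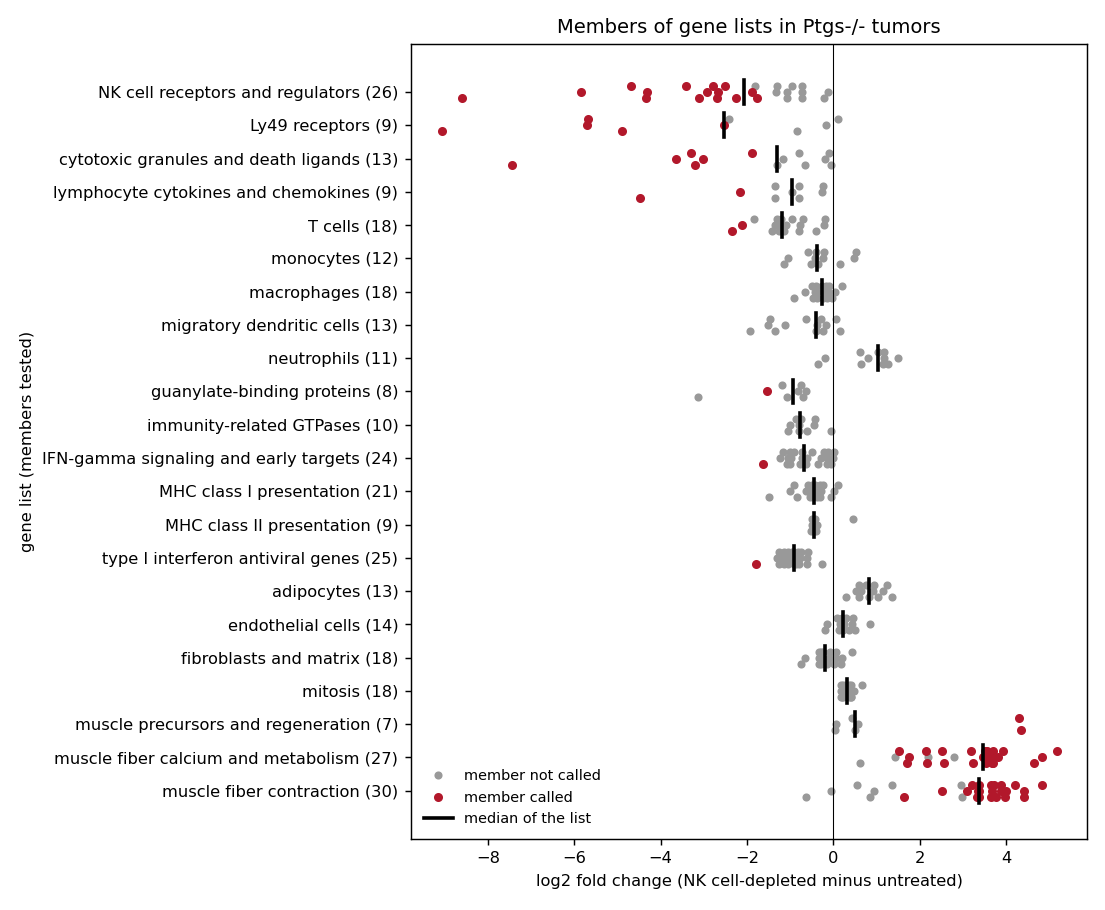
Log2 fold change (NK cell-depleted minus untreated) of each tested member of 22 gene lists, 1 point per gene, in red where called, with a black bar at the median of each list. The NK cell lists spread to the left down to -9.07, the 2 muscle fiber lists lie to the right around medians of 3.46 and 3.37, and the interferon lists lie left of 0 with few called members.

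Of 24 early targets of IFN-γ tested, 23 lay lower, with a median log2 fold change of -0.68. The FDR was passed by 3, where 0.515% of all genes passed it as lower. Cxcl9 (ENSMUSG00000029417, chromosome 5 from 92321347 to 92328079), whose product attracts CXCR3-bearing T and NK cells, stood at 25, 23.8 and 44.1 CPM in untreated and at 7.28, 9.69 and 12.5 CPM in depleted hosts. Its log2 fold change was -1.63 (standard error 0.34, adjusted p = 0.0386), and the call was lost in 6 of the 10 fits without 1 library. Cxcl10, a chemokine for the same receptor, overlapped between the hosts, at 10.8, 5.69 and 3.28 CPM against 1.39, 2.40 and 5.26 CPM (log2 fold change -1.09, adjusted p = 0.502). Irf1 (ENSMUSG00000018899, chromosome 11 from 53770014 to 53778374), a transcription factor that IFN-γ induces within the first hours, went from 245, 286 and 300 CPM to 186, 192 and 201 CPM. The groups were apart although the fall was small, 0.50 on the log2 scale (adjusted p = 0.0341). Serpina3g, a protease inhibitor, went from 15.6 ± 3.0 CPM to 7.66 ± 1.91 CPM (SD, n = 3 each, fall of 1.0, adjusted p = 0.0363). The calls by FDR of Irf1 and Serpina3g were lost in 6 and 8 of those 10 fits.

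Effector families of the interferon response showed the same direction. The 8 guanylate-binding protein genes tested, GTPases that attack intracellular microbes, all lay lower with a median log2 fold change of -0.95. Of these, 2 passed the FDR, where 0.515% of all genes passed it as lower. Gbp2 (ENSMUSG00000028270, chromosome 3 from 142620602 to 142638008) went from 22, 33.2 and 31.0 CPM to 14.6, 15.8 and 17.8 CPM, a fall of 0.82 (adjusted p = 0.0336). Gbp8 went from 7.85, 13 and 17.0 CPM to 3.21, 5.54 and 4.07 CPM, a fall of 1.53 with the same adjusted p of 0.0336. Gbp8 overlaps Gbp4 on the same strand of chromosome 5, so reads of these genes may not be separable, and Gbp4 did not pass (log2 fold change -1.08, adjusted p = 0.059). The calls of Gbp2 and Gbp8 were lost in 7 and 6 of the 10 fits without 1 library. All 10 immunity-related GTPase genes tested lay lower, by a median log2 fold change of -0.78, and none passed the FDR with edgeR. An unadjusted p under 0.05 was reached by 5, where 6.89% of all genes were lower, and 2 passed with DESeq2. Igtp, for example, went from 27.9, 40.2 and 33.4 CPM to 14.1, 18.5 and 21.7 CPM, which did not overlap but did not pass (adjusted p = 0.0976).

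Antigen presentation genes moved less. Of 21 MHC class I presentation genes, 19 lay lower with a median log2 fold change of -0.46. None passed the FDR with edgeR. An unadjusted p under 0.05 was reached by 11, where 6.89% of all genes were lower, and 4 passed with DESeq2. Tap1, a subunit of the peptide transporter, stood at 83.2, 133 and 127 CPM against 50.1, 60.7 and 69.6 CPM (adjusted p = 0.0524). H2-Q7, a nonclassical class I gene, stood at 110, 183 and 238 CPM against 93.7, 86.4 and 77.2 CPM (adjusted p = 0.072). B2m, the shared light chain of class I molecules, went from 2712 ± 550 CPM to 1934 ± 103 CPM (SD, n = 3 each, adjusted p = 0.235). In each case the untreated library nearest to the depleted ones was replicate 1. Of 9 MHC class II presentation genes 8 lay lower, with a median of -0.44, and none passed the FDR with edgeR (7 at an unadjusted p under 0.05, 1 passing with DESeq2).

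Antiviral genes that answer type I interferon lay lower in 25 of 25 cases, with a median log2 fold change of -0.92. The 2 groups of libraries did not overlap for 19 of the 25, while 10.4% of all genes separated in that direction. Of the 25, 1 gene was called, where 0.323% of all genes were called lower. Ifit1bl1, of the IFIT family that binds viral RNA, went from 7.24, 11.4 and 5.65 CPM to 2.14, 1.75 and 2.98 CPM, a fall of 1.79 (adjusted p = 0.0105). Its call was lost without depleted replicate 2 (adjusted p = 0.063). Ifit2 of the same family went from 30.8, 39.3 and 22.9 CPM to 13.5, 12.3 and 18.4 CPM and passed the FDR (fall of 1.05, adjusted p = 0.0295), which 4 of the 10 fits without 1 library lost. Zbp1, a sensor of nucleic acids that triggers cell death, stood at 43.6, 79.0 and 49.5 CPM against 19.2, 26.2 and 31.7 CPM, apart but not past the test (adjusted p = 0.0867). For these genes untreated replicate 2 was the highest library, whereas for Cxcl9 it was replicate 3.

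Depleted tumors kept interferon-stimulated transcripts above the level of COX-competent tumors in part of the genes. Of the 97 genes, 54 lay higher in all 3 depleted libraries than in all 4 Ptgs+/+ libraries, against 15.1% of all genes tested. For 29 of them the 3 groups were ordered without overlap, with untreated Ptgs-/- highest, depleted Ptgs-/- next and Ptgs+/+ lowest, which was so for 1.97% of all genes. The depleted libraries also lay above all Ptgs+/+ libraries for 11 of 18 macrophage, 7 of 12 monocyte and 7 of 11 type 1 dendritic cell genes. That held for 3 of 13 migratory dendritic cell and 1 of 11 neutrophil genes, so this position is not particular to interferon-stimulated genes. Cxcl9 stood at 1.64 to 4.48 CPM in Ptgs+/+ tumors, Irf1 at 138 to 159 CPM, Gbp2 at 9.66 to 11.6 CPM and Ifit2 at 9.39 to 10.7 CPM. The depleted tumors were not tested against the Ptgs+/+ tumors.

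**Figure D4:**
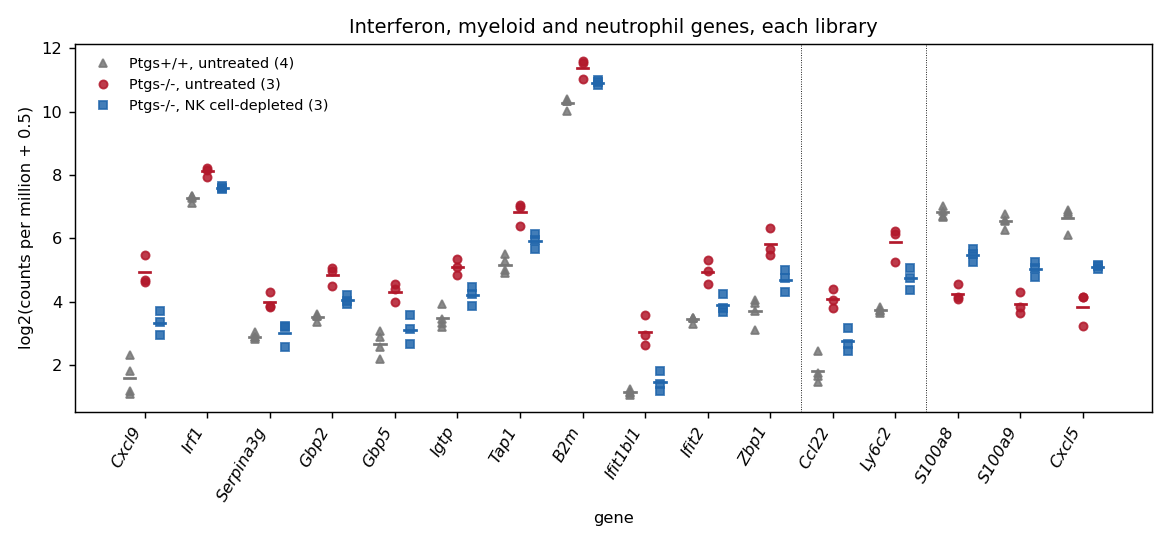
Level of 16 genes in each library, as log2(CPM + 0.5), for 4 Ptgs+/+, 3 untreated Ptgs-/- and 3 NK cell-depleted Ptgs-/- tumors, with a bar at each group's mean and dotted lines between interferon-stimulated, other myeloid and neutrophil-associated genes. For Cxcl9, Irf1 and Gbp2 the depleted tumors lie between the Ptgs+/+ and the untreated Ptgs-/- tumors, and for S100a8, S100a9 and Cxcl5 they lie between them in the opposite order.

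Promoters of 2 interferon-stimulated genes that passed the test are shown, because known regulators of such genes bind there. RefSeq promoters (GRCm38.p6, 250 bases before to 50 after the start, on the gene's strand) were searched on both strands for GAAA, any 2 bases and GAAA again, the core of the interferon-stimulated response element. It occurred in 3.44% of all 32851 promoters, in 13 of 20 promoters of the type I interferon list, which matched 18 of its 25 genes, and in 5 of 6 promoters of the guanylate-binding protein list, which matched 5 of its 8 genes. Muscle promoters were searched for the CArG box, bound by serum response factor, and the MEF2 site. A match describes letters only, and binding was not measured here. Capitals mark the matches, in Gbp2 (chr3:142620413-142620712, plus strand) and Ifit1bl1 (chr19:34601919-34602218, minus strand) a core of the response element that reads on the opposite strand.
Gbp2: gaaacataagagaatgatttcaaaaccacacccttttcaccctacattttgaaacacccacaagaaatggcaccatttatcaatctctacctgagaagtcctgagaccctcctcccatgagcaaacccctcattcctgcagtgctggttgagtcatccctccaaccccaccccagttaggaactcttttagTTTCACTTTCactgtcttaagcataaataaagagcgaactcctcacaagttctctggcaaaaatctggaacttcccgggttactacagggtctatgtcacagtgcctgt
Ifit1bl1: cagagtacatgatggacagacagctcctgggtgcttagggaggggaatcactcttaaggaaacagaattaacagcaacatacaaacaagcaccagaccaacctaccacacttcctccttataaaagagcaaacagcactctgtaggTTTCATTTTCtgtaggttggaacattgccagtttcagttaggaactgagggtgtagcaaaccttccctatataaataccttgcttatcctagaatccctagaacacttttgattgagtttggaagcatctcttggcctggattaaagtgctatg

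Leukocyte genes outside the lymphocytes lay lower or higher by lineage. Ptprc, the gene of CD45, went from 123, 195 and 198 CPM to 88.8, 101 and 96.8 CPM, and 6 of the 10 fits without 1 library lost it. Among 12 monocyte genes 9 lay lower and 2 passed the FDR, where 0.515% of all genes passed it as lower. Ly6c2, the marker of inflammatory monocytes, went from 37.2, 74.0 and 70.3 CPM to 20.1, 33.1 and 26.5 CPM (fall of 1.16, adjusted p = 0.0378), and Ms4a4c fell by 1.05 (adjusted p = 0.0382). Each was lost in 7 of the 10 fits without 1 library. Of 18 macrophage genes 16 lay lower by a median of -0.26, and none passed the FDR with edgeR. An unadjusted p under 0.05 was reached by 6, where 6.89% of all genes were lower, and 1 passed with DESeq2. C1qa, a complement subunit made by tissue macrophages, stood at 1152, 1780 and 1359 CPM against 1003, 1113 and 1098 CPM (adjusted p = 0.357).

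Migratory dendritic cell genes lay lower in 11 of 13 cases, 8 of them at an unadjusted p under 0.05, where 6.89% of all genes were lower. For 9 the groups of libraries did not overlap, while 10.4% of all genes separated in that direction. Ccl22, a chemokine that these cells make and that draws CCR4-bearing T cells, went from 20.6, 13.6 and 16.1 CPM to 5.78, 8.39 and 4.97 CPM and passed the FDR (fall of 1.36, adjusted p = 0.0456), which 9 of the 10 fits without 1 library lost. Ccr7, the receptor that guides them to lymph nodes, stood at 16.1, 18.3 and 21.2 CPM against 9.20, 6.09 and 10.0 CPM (adjusted p = 0.0634). Il12b, a subunit of the cytokine IL-12 that stimulates NK cells, had 47, 73 and 82 counts against 16, 16 and 40 (adjusted p = 0.175). The groups were apart for all 3 genes. Of 11 genes of type 1 dendritic cells, which NK cell-derived XCL1 attracts, 8 lay lower and none passed the FDR with edgeR. An unadjusted p under 0.05 was reached by 3, where 6.89% of all genes were lower, and 1 passed with DESeq2. Xcr1, the receptor for XCL1, stood at 8.96, 12.4 and 10.6 CPM against 5.35, 5.72 and 7.65 CPM (adjusted p = 0.131).

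Neutrophil-associated genes moved the other way. Of 11 tested 9 lay higher, with a median log2 fold change of 1.03, 6 of them without overlap where 7.16% of all genes separated upward. The FDR was passed by 2, where 0.921% of all genes passed it as higher. S100a8 and S100a9 encode the subunits of calprotectin, the main cytosolic protein of neutrophils. S100a8 stood at 17.1, 16.4 and 22.8 CPM in untreated and at 44.5, 50.4 and 37.3 CPM in depleted hosts, a rise of 1.26 ± 0.16 (log2 scale, standard error) with an adjusted p of 0.00237, which passed in every fit without 1 library. S100a9 stood at 11.9, 13.8 and 19.1 CPM against 33.0, 37.3 and 26.7 CPM (rise of 1.14, adjusted p = 0.0116, at most 0.0754 with 1 library left out, without untreated replicate 2). Cxcl5, a chemokine that attracts neutrophils through CXCR2, rose by 1.26 from 17.1, 8.90 and 17.3 CPM to 34.0, 32.5 and 34.8 CPM (adjusted p = 0.0284). That call was lost in 6 of the 10 fits without 1 library. Cxcl5 is not among the 11 genes but in a list of cancer-promoting inflammation. There 15 of 17 genes tested lay higher, by a median log2 fold change of 0.24, and 1 passed the FDR. Cxcr2 itself had 11, 23 and 30 counts against 40, 65 and 42 (adjusted p = 0.108), and Ly6g, a defining surface marker of neutrophils, had 0, 0 and 0 counts against 0, 0 and 1. In Ptgs+/+ tumors S100a8 reached 102 to 130 CPM, S100a9 75.5 to 108 CPM and Cxcl5 68.5 to 119 CPM, above all 6 Ptgs-/- libraries.

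The genes called higher were led by transcripts of skeletal muscle fibers. Of 64 muscle genes tested in 3 lists, 62 lay higher and 2 lower, 47 were called higher where 0.825% of all genes were, and the median log2 fold change was 3.36. Between 30 and 51 of them were called with 1 library left out, the fewest without untreated replicate 2. With the libraries of the first title code alone, 30 were called. The genes of these 3 lists, tested or not, made up 0.153% to 0.206% of the counts in untreated hosts. Their share was 0.552%, 0.704% and 1.14% in depleted replicates 1, 2 and 3, and 0.162% to 0.200% in Ptgs+/+ tumors. Muscle genes outside the lists are not part of these shares. How much host muscle each dissected tumor held is not given in the sources used here. Its part in these differences was not tested.

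Of 30 genes of the contractile apparatus tested, 28 lay higher, 22 were called and the median log2 fold change was 3.37. Acta1 (ENSMUSG00000031972, chromosome 8 from 123891769 to 123894751), the actin of skeletal muscle, stood at 171, 132 and 46.3 CPM in untreated and at 1197, 1682 and 2543 CPM in depleted hosts. Its log2 fold change was 3.97 (standard error 0.76, adjusted p = 0.0222), with an adjusted p of up to 0.116 in fits without 1 library. Myh4 (ENSMUSG00000057003, chromosome 11 from 67238029 to 67260446), the myosin heavy chain of fast type IIb fibers, stood at 79.6, 42.8 and 25.5 CPM against 408, 514 and 1215 CPM (rise of 3.87, adjusted p = 0.011). That call was lost without untreated replicate 2 (adjusted p = 0.078) or 3. Mylpf, the regulatory light chain of fast fibers, went from 21.2 ± 11.3 CPM to 331 ± 128 CPM and Tnni2, fast troponin I, from 39.3 ± 16.1 CPM to 510 ± 235 CPM (SD, n = 3 each). They rose by 3.99 and 3.72 on the log2 scale, and both passed in every fit without 1 library. Tpm2, a tropomyosin that is not restricted to skeletal muscle, started from 101, 78.1 and 88.4 CPM and rose by 1.64 to 199, 247 and 376 CPM (adjusted p = 0.002).

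Genes of slow fibers, named after their values were seen, gave a mixed picture. Mybpc1, the slow form of myosin-binding protein C, was called higher, at 2.09, 2.90 and 1.28 CPM against 10.2, 13.8 and 33.1 CPM (log2 fold change 3.21, adjusted p = 0.00599), while 3 others did not pass the test. Tnni1, slow troponin I, had 37, 22 and 37 counts against 37, 28 and 30 (log2 fold change -0.07, adjusted p = 0.951). Tnnt1, slow troponin T, had 35, 54 and 21 counts against 57, 89 and 65 (0.85, adjusted p = 0.338), and Myl3, a slow and cardiac light chain, 4, 19 and 9 against 4, 4 and 13. The difference between fast and slow genes was not tested.

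**Figure D5:**
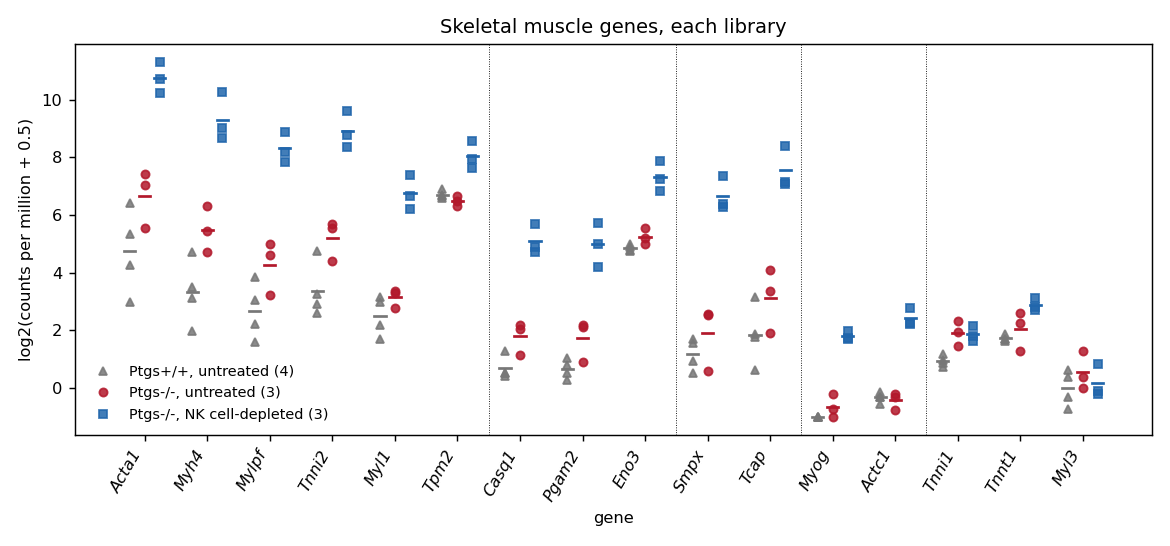
Level of 16 skeletal muscle genes in each library, as log2(CPM + 0.5), for 4 Ptgs+/+, 3 untreated Ptgs-/- and 3 NK cell-depleted Ptgs-/- tumors, with a bar at each group's mean and dotted lines between contractile, calcium and metabolic, further fiber, developmental and slow-fiber genes. For the first 13 genes and for Tnnt1 every depleted tumor lies above all other tumors, and for Tnni1 and Myl3 the groups overlap.

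Genes of calcium handling and of muscle energy metabolism rose by similar amounts. Of 27 tested all 27 lay higher, 23 were called and the median log2 fold change was 3.46. Casq1, the calcium store of the sarcoplasmic reticulum, had 33, 35 and 19 counts against 240, 319 and 509 (rise of 3.53, adjusted p = 0.000971). Pgam2, the muscle form of phosphoglycerate mutase, had 31, 39 and 15 counts against 168, 342 and 527, and Eno3, muscle enolase, rose by 2.15 on the log2 scale from 38.1 ± 8.06 CPM to 166 ± 61.1 CPM (SD, n = 3 each). Among the called genes the largest rise in the fit belonged to Fitm1, which shapes lipid droplets in muscle, with 1, 3 and 0 counts against 15, 67 and 83. Corrected for depth its counts were 39.2-fold higher in depleted hosts, with a 95% counting interval from 15.0 to 146. Its call (adjusted p = 0.0168) was lost in 4 of the 10 fits without 1 library, at up to 0.0848. Smpx, a small stretch-responsive protein, had 44, 51 and 11 counts against 714, 898 and 1641 and rose by 4.84 on the log2 scale (adjusted p = 0.000971), and Sln, which regulates the calcium pump, had 7, 10 and 1 counts against 72, 143 and 272.

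Further genes among the largest rises have known places in the muscle fiber. Tcap, which caps titin at the Z disc, had 135, 94 and 36 counts against 1251, 1542 and 3401, and Lmod2, which elongates thin filaments, 2, 1 and 1 against 39, 23 and 65. Apobec2, a muscle member of the cytidine deaminase family, had 41, 46 and 17 counts against 514, 525 and 1368. Mstn, the secreted inhibitor of muscle growth, had 2, 1 and 1 counts against 31, 26 and 46. In each of these all depleted libraries were above all untreated ones, and depleted replicate 3 was the highest. Smtnl1 and Asb16 completed the set, with log2 fold changes of 4.63 and 4.42, and their calls were lost in 2 and 1 of the 10 fits without 1 library.

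Genes of muscle precursors and regeneration were mostly too low to be tested. Of 20 listed, 7 were tested, all 7 lay higher and 2 were called higher, where 0.825% of all genes were. Myog, a transcription factor of muscle differentiation, had 3, 1 and 0 counts in untreated and 26, 31 and 35 in depleted hosts, and was at 0 in all 4 Ptgs+/+ libraries. It rose by 4.34 on the log2 scale (adjusted p = 0.0127), which 3 of the 10 fits without 1 library lost. Actc1, the cardiac actin that developing and regenerating fibers also use, had 3, 3 and 1 counts against 39, 68 and 43 (rise of 4.28, adjusted p = 0.000971). Myod1, a determination factor of the lineage, stayed near the floor at 2, 1 and 0 counts against 2, 5 and 3. Chrna1, a subunit of the acetylcholine receptor, stood at 107, 78.5 and 120 CPM against 135, 167 and 103 CPM, overlapping between hosts (adjusted p = 0.605).

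Promoters of the muscle genes were searched in the same way. The CArG box occurred in 1.63% of all 32851 promoters and in 6 of 22 promoters of the contraction list, which matched 20 of its 30 genes. It occurred in 0 of 27 promoters of the calcium and metabolism list and in 9 of 115 promoters of the genes called higher. The MEF2 site occurred in 3.19% of all promoters and in 19 of 115 promoters of the genes called higher, which matched 94 of the 120. It occurred in 4 of 22 promoters of the contraction list and in 3 of 27 of the calcium and metabolism list. Acta1 (chr8:123894726-123895025, minus strand) is shown for its CArG box and Myh4 (chr11:67237562-67237861, plus strand) for a MEF2 site followed by a CArG box, each in capitals, from RefSeq on GRCm38.p6.
Acta1: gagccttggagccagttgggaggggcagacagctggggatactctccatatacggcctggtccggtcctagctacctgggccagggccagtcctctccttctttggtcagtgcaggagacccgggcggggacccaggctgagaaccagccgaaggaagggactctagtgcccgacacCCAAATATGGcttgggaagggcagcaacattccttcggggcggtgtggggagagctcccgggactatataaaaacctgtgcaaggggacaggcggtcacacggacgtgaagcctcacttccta
Myh4: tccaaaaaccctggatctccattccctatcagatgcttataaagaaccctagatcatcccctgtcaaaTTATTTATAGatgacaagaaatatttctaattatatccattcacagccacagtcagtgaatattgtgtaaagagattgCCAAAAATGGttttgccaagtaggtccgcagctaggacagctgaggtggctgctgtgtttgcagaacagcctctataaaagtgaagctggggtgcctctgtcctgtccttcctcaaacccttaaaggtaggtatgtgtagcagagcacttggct

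Other tissues of the tumor site showed no called genes. Adipocyte genes lay higher in 13 of 13 cases, by a median log2 fold change of 0.83, with 0 past the FDR in edgeR and in DESeq2 and 1 at an unadjusted p under 0.05. Fabp4, the fatty acid carrier of fat cells, stood at 150, 729 and 1587 CPM against 2181, 1060 and 2095 CPM (adjusted p = 0.658), a spread within the untreated hosts that overlapped the depleted ones. Of 14 endothelial genes 12 lay higher, and of 18 fibroblast and matrix genes 12 lay lower, with none past the FDR in edgeR, while DESeq2 passed 2 fibroblast genes and 0 endothelial ones (2 and 1 at an unadjusted p under 0.05). Col1a1, the main collagen chain, stood at 4597 ± 286 CPM against 3760 ± 574 CPM (SD, n = 3 each, adjusted p = 0.494). Fbn1, an elastic fiber protein, had the largest fold change of its list, at 324, 448 and 303 CPM against 183, 199 and 247 CPM (adjusted p = 0.0754).

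Genes of cell division, of pigment cells and of signals to NK cells did not pass the test either, and in bulk tumors these transcripts may come from several cell types. All 18 mitosis genes lay higher, by a median log2 fold change of 0.32, with 0 past the FDR in edgeR and in DESeq2. An unadjusted p under 0.05 was reached by 4, where 4.31% of all genes were higher. Plk1, a mitotic kinase, stood at 146, 160 and 169 CPM against 236, 243 and 165 CPM, and depleted replicate 3 lay within the untreated range (adjusted p = 0.388). Of 12 melanocytic genes 7 were too low to be tested, and the pigment cell antigen Mlana, 1 of these, was at 1, 1 and 1 counts against 0, 0 and 2, so that a defining marker of the labelled cell type was at or near 0 in both hosts. None of the other 5 passed the FDR in edgeR or DESeq2 (1 at an unadjusted p under 0.05). Among 9 ligands of NK cell receptors on target cells, 5 lay higher and 4 lower with none past the FDR in edgeR or DESeq2 (1 at an unadjusted p under 0.05). Raet1e, a stress ligand of the NKG2D receptor, had 32, 22 and 48 counts against 58, 52 and 34 (adjusted p = 0.685). Cd274, the IFN-γ-inducible checkpoint ligand PD-L1, stood at 17.8, 11 and 10.4 CPM against 7.28, 5.35 and 7.65 CPM, without overlap but not past the test (adjusted p = 0.265). Il15, a cytokine that sustains NK cells, stood at 7.36, 12.8 and 8.21 CPM against 5.78, 6.09 and 7.15 CPM (adjusted p = 0.387).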

How the data were processed

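Whole tumors were profiled by QuantSeq 3′ RNA sequencing. The authors trimmed reads with BBDUK, fqtrim and cutadapt, aligned them to GRCm38 with STAR, counted them on Ensembl version 86 genes with featureCounts and deposited raw counts per gene, not normalized or pooled. Use of strand, reads matching several genes and molecular identifiers is not stated. GENCODE release M21 named 45143 of 45706 identifiers, and 563 have no name.

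Counts were analyzed in R 4.3.3 with edgeR 4.0.16 (filterByExpr, TMM, quasi-likelihood test, Benjamini-Hochberg adjustment over 14550 genes), limma 3.58.1 and DESeq2 1.42.0, in 1 model of all 10 libraries with 3 groups, following the study's thresholds. CPM use library totals without TMM factors. Ratios of counts at the floor have exact binomial intervals at a level of 95%, which cover counting error only. The 35 gene lists and the members were chosen with earlier results of these data known, so their direction is no independent evidence. They were described by counts and medians, with no set test. Text genes are Ptgs1, Ptgs2, Ncr1, Klrb1c, Ifng, Cxcl9, Cxcl10, the 10 largest changes each way and the 5 called genes each way of highest level, with up to 6 members per list by p. Prf1, Ly6g, Mlana, Myod1, Pde4dip and Pfkm are also named outside this rule. Other exceptions are marked, and not every gene of the rule is reported here. On simulated data for this comparison (14327 genes, 200 changed by a log2 fold change of 2), 178 (89%) of the changed genes and 1 unchanged gene were called. Replicates differed by a chi-square of 7.41 to 30.1 per degree of freedom, so none was a library deposited more than once. Alternatives were DESeq2, a likelihood ratio test, other scalings, filters and thresholds, other sets of libraries, the title code as a term, the label number as a block and each library left out. Single cells and sorted macrophages were not analyzed here.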

Additional observations from a re-analysis of the deposited data

Results flagged for a closer look

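Ifit2 was flagged because 1 of the 4 Ptgs+/+ libraries, at 9.39 CPM, stood apart from the other 3, with a gap of 0.883 of the group's range, above Dixon's critical value at the 95% level. Chance flags about 1 in 20 such groups, and 14 genes were examined in this way, of which 1 was flagged. The Ptgs+/+ tumors are not among the hosts compared, but this library entered the estimate of the spread between replicates. It thus bears on the adjusted p of Ifit2.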

How the results depend on the processing

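The counts of calls moved with the processing. The total of 167 came to 60 with at least 10 counts in each of the 6 libraries, a filter that removes genes absent from one host, to 87 with the libraries of the first title code alone, and to 100 to 213 with 1 library left out. The 47 lower genes came to 74 by a likelihood ratio test, 73 without a filter, 11 with at least 10 counts, 26 with the first title code alone, 75 by FDR alone and 29 to 82 with 1 library left out. The 120 higher genes came to 49 with at least 10 counts, 61 with the first title code alone and 66 to 131 with 1 library left out. Calls were lower in 28.1% of cases, in 18.3% with at least 10 counts and in 38.5% without untreated replicate 1. The label numbers did not pair the libraries (same-number correlations of 0.0499, 0.0317 and 0.0110), and with the replicate block 105 genes were called, 30 lower and 75 higher.

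Of the genes examined singly that did not pass the test, 6 changed sign. Leaving out 1 library gave log2 fold changes from -0.071 to 0.16 for Ptgs1, -0.19 to 0.76 for Ptgs2, -0.060 to 0.27 for Klra4, -0.25 to 0.017 for Il18rap, -0.30 to 0.19 for Tnni1 and -1.43 to 0.069 for Myl3, and the first title code alone gave -0.19 for Ptgs2 and 0.017 for Il18rap. The cause was not tested. Of 62 genes past the FDR among the 108 examined singly, 33 passed in every fit. Of their 1275 fits, 1079 kept the call, 196 lost it and 0 changed sign. The filter on low counts left out 20 of the 77 NK cell genes, Ifng and Prf1 among them, which were tested in the fit without a filter.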
